A study of Mus musculus with 6 samples.

Results

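NFAT (nuclear factor of activated T cells) genes encode a family of transcription factors that couple calcium entry or osmotic stress to gene expression. All 5 mouse members, Nfat5, Nfatc1, Nfatc2, Nfatc3 and Nfatc4, were taken by their NCBI gene identifiers from the 36528 genes listed for each library, and all 5 passed the filter on low counts. RNA came from lumbar dorsal root ganglia, which hold the cell bodies of somatosensory neurons together with their glia. The CreER-positive mice (n = 3) carried loxP sites on both copies of Scn9a, the gene of the sodium channel Nav1.7, together with pCAAG.Cre.ER, a Cre recombinase that tamoxifen activates. The controls (n = 3) were CreER-negative littermates that carried the same floxed alleles. All mice were females of 12 to 18 weeks, and each library pooled the 6 ganglia L4 to L6 of 1 mouse. The design compares the ganglia of conditional Nav1.7 knockouts with those of littermates. CreER was present only in the knockout group, so an effect of CreER itself and one of Scn9a deletion cannot be told apart, and the tamoxifen schedule is not given in the sources used here. Total counts per library were 52309273 to 62625441 in the CreER-positive group and 40237131 to 63332040 in the controls.

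In resting cells the calcineurin-dependent members NFATc1 to NFATc4 are phosphorylated and held in the cytoplasm. When calcium enters, calmodulin activates the phosphatase calcineurin, which dephosphorylates them so that they move into the nucleus, and kinases such as GSK3 and DYRK1A reverse the step. NFAT5, also called TonEBP, lacks the calcineurin docking region, responds to hypertonicity and drives genes for osmolyte transport and synthesis. In sensory neurons, NFATc factors have been linked to transcription that follows electrical activity, and NFAT factors have been considered as a possible link between sodium entry and the opioid precursor gene Penk. Because this control acts on the protein and its location, transcript counts measure how much mRNA of each factor was present and not its activity.

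The family shares a DNA core, GGAAA, which was searched on both strands (as GGAAA or TTTCC) in the 250 bases before each RefSeq transcription start (GRCm38.p6). It occurs in 55.6% of the 32851 promoter windows, and the longer form TGGAAA (or TTTCCA), which lies inside some of the same matches, in 18.6%. Of the 6 windows listed for Nfat5, Nfatc2, Nfatc3 and Nfatc4, 5 hold the core. The window of Nfat5, the most abundant member, is shown first. Rcan1, which encodes a calcineurin inhibitor and has an internal promoter known to respond to calcineurin and NFAT, is shown with both of its start sites. Capitals mark the core on either strand.
Nfat5, chr8:107293220-107293469, plus strand: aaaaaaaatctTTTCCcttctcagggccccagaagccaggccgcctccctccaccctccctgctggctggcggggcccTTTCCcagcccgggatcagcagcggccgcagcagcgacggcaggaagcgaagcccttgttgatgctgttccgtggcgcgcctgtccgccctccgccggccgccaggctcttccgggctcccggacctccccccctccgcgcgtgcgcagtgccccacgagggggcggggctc
Rcan1 internal start, chr16:92400079-92400328, minus strand: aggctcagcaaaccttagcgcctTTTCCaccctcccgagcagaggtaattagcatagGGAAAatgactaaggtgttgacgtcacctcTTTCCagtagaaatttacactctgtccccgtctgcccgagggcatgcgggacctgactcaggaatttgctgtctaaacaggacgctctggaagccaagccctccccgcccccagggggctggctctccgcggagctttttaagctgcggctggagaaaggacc
Rcan1 upstream start, chr16:92466170-92466419, minus strand: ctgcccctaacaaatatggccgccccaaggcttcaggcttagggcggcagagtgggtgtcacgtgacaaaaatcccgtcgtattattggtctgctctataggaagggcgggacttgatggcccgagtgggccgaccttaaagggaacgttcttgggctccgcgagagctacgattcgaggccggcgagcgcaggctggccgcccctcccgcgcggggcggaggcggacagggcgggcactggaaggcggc
The internal Rcan1 window holds 3 matches, and 6.39% of all windows hold as many or more. They begin 227, 193 and 163 bases before the start site, and the first and last of them extend to TTTCCA. The Nfat5 window holds 2 matches, and 21.4% of all windows hold as many or more, and the upstream Rcan1 window holds 0. Of the 20 windows listed for 7 of the 12 calcineurin and NFATc target genes treated below, 14 hold the core. Several of the 20 are alternative start sites of Bdnf, so this is a count of windows and not of genes. The window of 1 of these genes, Trpc6 (chr9:8543892-8544141), holds 0. It lies inside the gene span used here, which starts at 8543867, so the bases before that span were not searched. The Nfat5 window ends past the start of its gene span (107293435). A match is a string of letters in a window and does not show binding.

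Nfat5 was the most abundant member in every library. To compare genes, counts scaled to a common library size with TMM factors (CPM) were divided by the gene width given in the authors' tables, which for these 5 genes is 98.9% to 101% of the full gene span and so includes introns. On this scale the level of Nfat5 was 2.02 ± 0.0938 CPM per kb in CreER-positive mice and 2.27 ± 0.132 CPM per kb in controls (SD, n = 3 each). The level of Nfatc3 was 0.609 ± 0.0261 CPM per kb in CreER-positive mice and 0.631 ± 0.00776 CPM per kb in controls. Nfatc4 came next, with 0.224 ± 0.0407 CPM per kb in CreER-positive mice and 0.198 ± 0.0123 CPM per kb in controls. The lowest members were Nfatc1, with a mean of 0.0580 CPM per kb over the 6 libraries, and Nfatc2, with 0.0272 CPM per kb. The ranges of neighbours in this order did not overlap over the 6 libraries. The level of Nfat5 lay above that of 74.2% of tested genes and the level of Nfatc3 above 50.2%, while Nfatc2 lay above 9.62%.

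The lower part of that order depended on the length used. Annotated exons make up 63.5% of the width of Nfatc4, a compact gene of 9149 bases, but 6.99% of the width of Nfatc1 and 8.36% of that of Nfatc2. Per kb of exons, Nfatc1 (mean 0.830 CPM per kb over the 6 libraries) came before Nfatc4 (0.333 CPM per kb), and the ranges of Nfatc4 and Nfatc2 (0.325 CPM per kb) overlapped. Nfat5 (10.1 CPM per kb) and Nfatc3 (3.75 CPM per kb) kept ranks 1 and 2 on both scales. In bulk tissue, fewer cells that use a gene and less RNA per cell cannot be told apart.

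**Figure D1:**
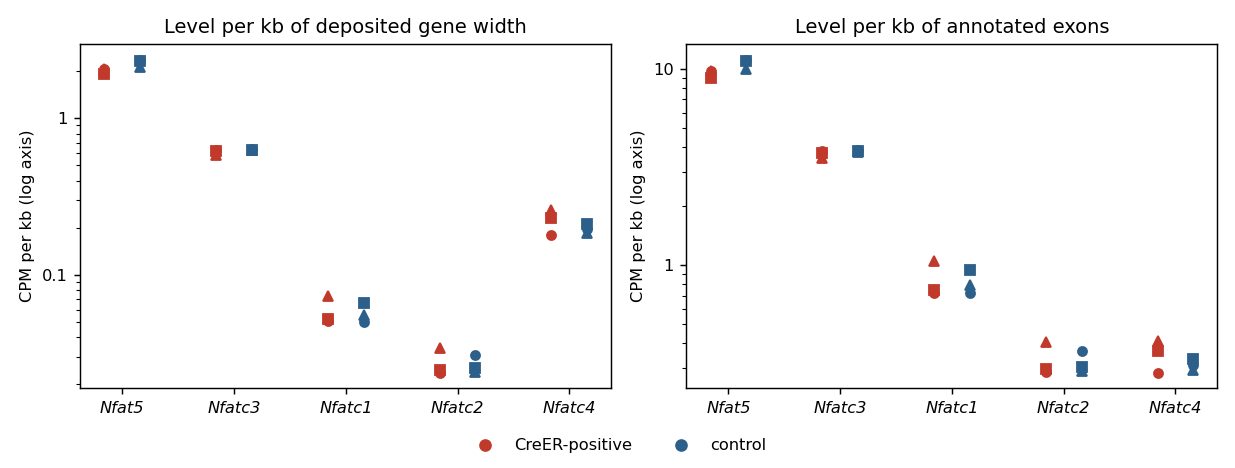
Level of each NFAT transcript in CPM per kb on log axes, per kb of deposited gene width on the left and per kb of annotated exons on the right; each point is 1 library, red for CreER-positive and blue for control. Nfat5 and Nfatc3 lead on both scales, and Nfatc4 ranks 3 by width and 4 by exons.

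None of the 5 members passed the test between the groups. In the quasi-likelihood test of edgeR, with p values adjusted by Benjamini-Hochberg over all 22043 tested genes, 0 of 5 reached an adjusted p under 0.05, against 0.726% of all tested genes. DESeq2 and limma-voom also called 0 of the 5, against 1.93% and 0.721% of all tested genes. At an unadjusted p under 0.05 there was 1 member, Nfat5, and 10.6% of all tested genes had such a p. The median log2 fold change of the 5 was 0.03, and that of all tested genes was 0.00.

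Nfat5 (NCBI gene 54446, chromosome 8, 107293435 to 107379517 in GRCm38) encodes the tonicity-responsive factor. It had 179, 165 and 179.7 CPM in CreER-positive mice, against 205, 201 and 184 CPM in controls. All 3 CreER-positive values lay below all 3 control values, although the gap between CreER-positive replicate 3 and control replicate 3 was small. The means were 175 ± 8.12 CPM in CreER-positive mice and 196 ± 11.4 CPM in controls (SD, n = 3 each). The log2 fold change was -0.17 ± 0.06 (SE), with a 95% interval from -0.31 to -0.03 that is not adjusted for the number of genes tested. Its unadjusted edgeR p was 0.0246 and its edgeR adjusted p 0.376. On CPM the exact two-sided permutation p was 0.1, the smallest that 3 animals against 3 allow. In 9.31% of tested genes all CreER-positive values lay below all control values, so such a separation was common in these libraries.

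Nfatc3 (NCBI gene 18021, chromosome 8, 106058818 to 106130537) encodes a calcineurin-dependent member. It had 44.6, 44.0 and 41.1 CPM in CreER-positive mice, against 45.3, 44.7 and 44.2 CPM in controls. The groups overlapped, and CreER-positive replicate 3 held the lowest value. The log2 fold change of -0.05 ± 0.05 (SE) had a 95% interval from -0.17 to 0.07 and an edgeR adjusted p of 0.806, with an exact two-sided permutation p of 0.2. Over all 6 libraries Nfatc3 varied least of the 5, with a coefficient of variation of 3.39% in CPM. Its last 219 bases overlap Esrp2 on the other strand, and without a known strand setting reads there cannot be assigned to 1 gene.

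Nfatc1 (NCBI gene 18018, chromosome 18, 80606205 to 80713071), known for its part in osteoclast and heart valve development, was a low transcript in these ganglia. It had 5.40, 5.61 and 7.84 CPM in CreER-positive mice, against 5.39, 7.04 and 5.93 CPM in controls. The highest value was that of CreER-positive replicate 3, and the groups overlapped. The log2 fold change was 0.03 ± 0.16 (SE), with a 95% interval from -0.32 to 0.39 and an edgeR adjusted p of 0.971 (exact two-sided permutation p 0.8). An antisense gene of 2571 bases, AC123818.1, lies within it.

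Nfatc2 (NCBI gene 18019, chromosome 2, 168476410 to 168601657), the member first described in T cells as NFAT1, rested on 158 to 229 counts per library. It had 3.02, 3.14 and 4.30 CPM in CreER-positive mice, against 3.89, 3.21 and 3.05 CPM in controls. CreER-positive replicate 3 again held the highest value, and control replicate 1 the next. The log2 fold change was 0.05 ± 0.16 (SE), with a 95% interval from -0.32 to 0.42 and an edgeR adjusted p of 0.952 (exact two-sided permutation p 0.9).

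Nfatc4 (NCBI gene 73181, chromosome 14, 55824795 to 55833943), a member studied in neurons for its response to neurotrophins and activity, had the fewest counts, 73 to 130 per library. It had 1.65, 2.12 and 2.39 CPM in CreER-positive mice, against 1.80, 1.93 and 1.71 CPM in controls. CreER-positive mice held both the highest and the lowest value. Its log2 fold change of 0.18 ± 0.17 (SE) was the highest of the 5, with a 95% interval from -0.20 to 0.55 and an edgeR adjusted p of 0.786 (exact two-sided permutation p 0.4).

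**Figure D2:**
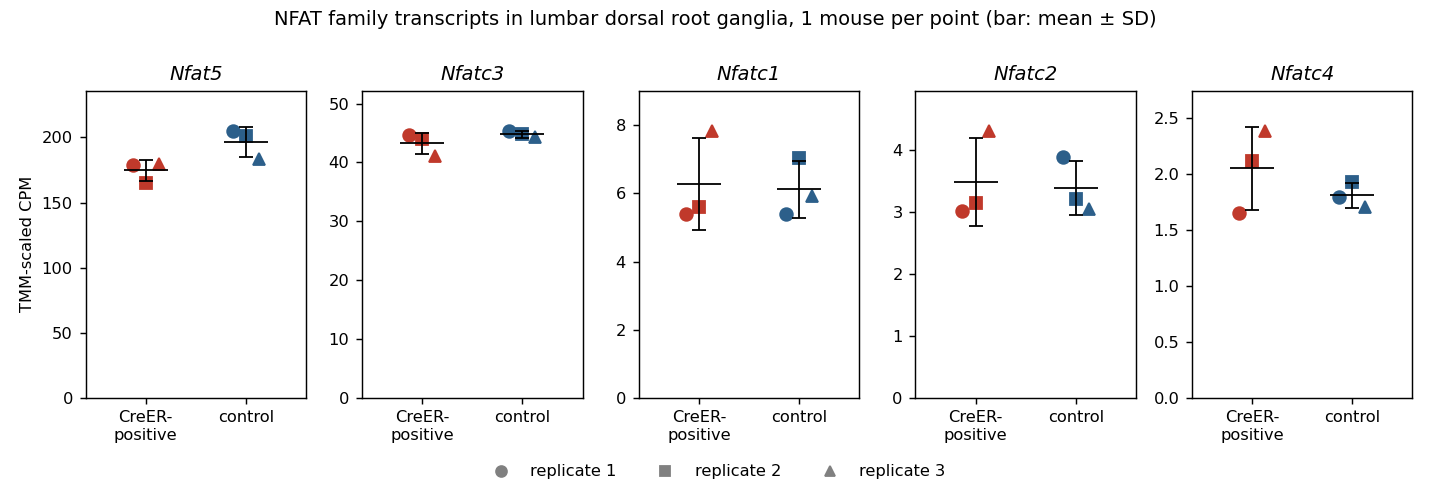
TMM-scaled CPM of the 5 NFAT transcripts in each mouse, CreER-positive in red and control in blue, with marker shapes for replicates and bars for the mean ± SD; each axis starts at 0. The Nfat5 points of CreER-positive mice lie below those of controls, while in the other panels the groups overlap.

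The intervals set how large a change these libraries could have hidden. As folds of CreER-positive over control, the 95% intervals ran from 0.805 to 0.981 for Nfat5 and from 0.889 to 1.05 for Nfatc3. They were wider for the low transcripts, from 0.799 to 1.31 for Nfatc1, from 0.801 to 1.34 for Nfatc2 and from 0.873 to 1.46 for Nfatc4. For none of the 5 did the interval from all 6 libraries reach a fold of 1.5 in either direction. This bound is that of the main fit alone. Without CreER-positive replicate 1 the log2 fold change of Nfatc4 was 0.31 ± 0.16 (SE). Scn9a itself, whose gene-level count includes reads outside any deleted part and so does not check the group labels, had a log2 fold change of -0.04 with a 95% interval from -0.21 to 0.14.

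**Figure D3:**
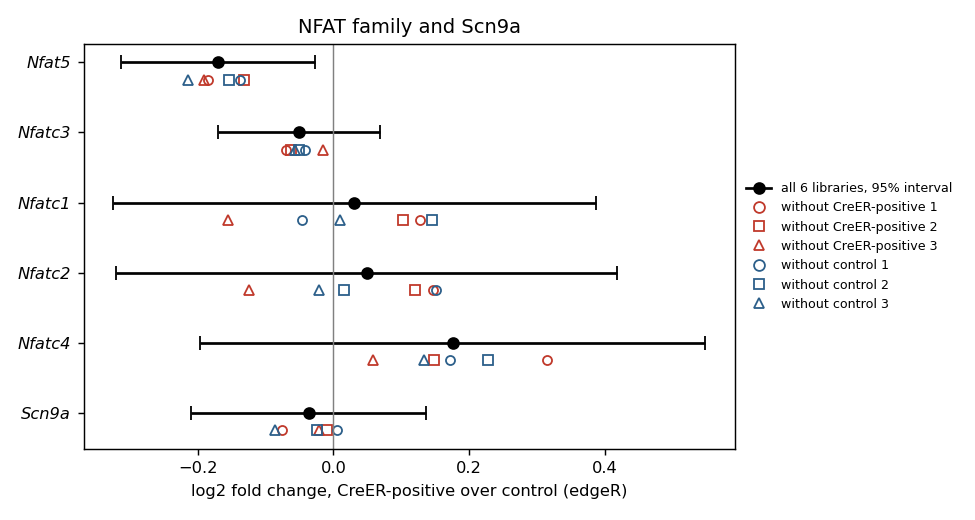
Log2 fold change of each NFAT transcript and Scn9a, CreER-positive over control: filled points with 95% intervals use all 6 libraries, and open symbols leave out 1 library each. Only the interval of Nfat5 (-0.31 to -0.03) lies on 1 side of 0, and without CreER-positive replicate 3 the estimates of Nfatc1 and Nfatc2 are -0.16 and -0.12.

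CreER-positive replicate 3 held the highest level of Nfatc1, Nfatc2 and Nfatc4 and the lowest of Nfatc3. In log2 CPM relative to the control mean it stood at 0.37 for Nfatc1, 0.35 for Nfatc2 and 0.40 for Nfatc4, and CreER-positive replicate 1 at -0.17, -0.16 and -0.13 for the same genes. The same library had the highest level of 8 macrophage markers, whose summed CPM was 67.7 to 123 in CreER-positive mice and 63.5 to 83.7 in controls. The 7 fibroblast markers summed to 977 to 1588 CPM in CreER-positive mice and 897 to 1172 CPM in controls, and the 8 endothelial markers to 131 to 219 CPM in CreER-positive mice and 145 to 156 CPM in controls. The 5 red blood cell genes summed to 35.4 to 82.5 CPM in CreER-positive mice and 32.4 to 42.9 CPM in controls. In each of these 4 lists the top of the CreER-positive range was replicate 3, none of their genes was called by edgeR, and no marker was at 0. The 7 vascular smooth muscle and pericyte markers summed to 197 to 211 CPM in CreER-positive mice and 217 to 238 CPM in controls. These sums did not overlap. EdgeR called 1 of the 7 lower, against 0.563% of all tested genes, and 5 estimates were positive and 2 negative. The mean log2 level of these 7 relative to controls was 0.22 in CreER-positive replicate 3. The 8 satellite glia markers, also highest in that replicate, summed to 2057 to 2636 CPM in CreER-positive mice and 1943 to 2088 CPM in controls. The 8 pan-neuronal markers, all detected at 1 CPM or more, had a mean log2 level relative to controls of -0.15 in that replicate. The other libraries had -0.03 to 0.07. Their sums overlapped, at 5842 to 7075 CPM in CreER-positive mice and 5833 to 6466 CPM in controls. Of the pan-neuronal estimates, 4 were positive and 4 negative, from -0.42 to 0.31. The unadjusted edgeR p was under 0.05 for 3 of the 8, against 10.6% of all tested genes. EdgeR called 0 and DESeq2 1, against 0.726% and 1.93%. For 2 of the 8 the groups did not overlap, against 15.9%. Of the cell types known for NFATc1 or NFATc2, 6 osteoclast genes summed to 79.1 to 98.6 CPM in CreER-positive mice and 79.0 to 93.7 CPM in controls. The 7 T cell genes matched, of which Cd3d and Cd3g failed the count filter and Thy1 is also neuronal, summed to 388 to 462 CPM in CreER-positive mice and 364 to 431 CPM in controls. The 5 B cell genes summed to 2.59 to 3.03 CPM in CreER-positive mice and 5.28 to 7.67 CPM in controls, so the groups did not overlap. All 4 tested B cell genes had negative estimates. EdgeR called 1 of them, Pax5, lower (-1.54, adjusted p 0.00227), against 0.563% of all tested genes. The part of all these transcripts in the NFAT values was not tested.

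Without CreER-positive replicate 3 the estimates of Nfatc1 (-0.16) and Nfatc2 (-0.12) were below 0, and that of Nfatc4 was 0.06. Nfat5 then had -0.19, with an edgeR adjusted p of 0.132, the lowest of the range of 0.132 to 0.837 over all 17 alternatives run. Without that library and control replicate 2, which carried muscle transcripts (skeletal muscle genes at 71.9 CPM in sum, against 7.48 to 11.1 CPM elsewhere), Nfat5 had -0.17 (edgeR adjusted p 0.313) and the other 4 members had no call.

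**Figure D4:**
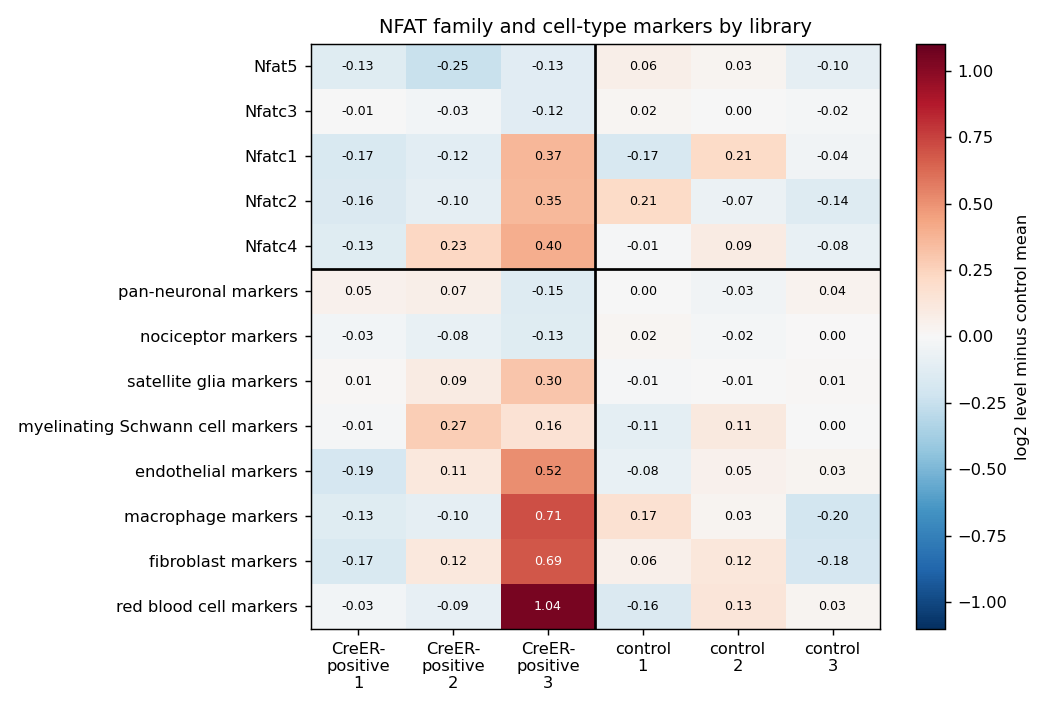
Log2 level of each NFAT transcript, and mean log2 level of 8 marker lists (log2 of CPM + 0.5), minus the control mean, in each library; red is above and blue below the control mean. CreER-positive replicate 3 stands at 0.35 to 0.40 for Nfatc1, Nfatc2 and Nfatc4, at 0.71 for macrophage and 0.69 for fibroblast markers, and at -0.15 for pan-neuronal markers.

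For each member, the genes whose log2 CPM followed it most closely over the 6 libraries were taken from the 12238 or 12239 other named genes of at least 5 CPM. With 6 points, high correlations are common: 74 genes reached a Pearson r of 0.95 with Nfat5, 18 with Nfatc1, 101 with Nfatc2, 107 with Nfatc3 and 24 with Nfatc4. All genes of a library share its depth and makeup, and these differ between libraries, so these values only describe which genes rank the mice alike. Closest to Nfat5 were Kif7, a kinesin-family regulator of hedgehog signalling, and Ccdc136 (r = 0.997 for both). Kif7 had 5.47, 4.88 and 5.54 CPM in CreER-positive mice, against 7.08, 6.73 and 5.71 CPM in controls, in the same rank order as Nfat5. Closest to Nfatc1 were Cpxm2 (r = 0.9995), a carboxypeptidase-family gene, and Aplf (0.988). Nfatc2 was followed by Megf10 (0.995), an engulfment receptor gene, and Utp11 (0.994), and Nfatc3 by Apmap (0.9996) and Pafah1b1 (0.995). Nfatc4 was followed by Olfml2a (0.980) and Map4k4 (0.979).

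Among the members themselves, Nfatc1, Nfatc2 and Nfatc4 correlated positively with each other over the 6 libraries (r = 0.51 to 0.71) and negatively with Nfatc3 (-0.80 to -0.59). These are descriptions of 6 libraries in which 1 library holds the highest value of the first 3.

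The machinery around NFAT was read from 65 further tested genes in 7 lists, with Rcan1 in a pair of them. By edgeR, 1 of the 65 was lower, against 0.563% of all tested genes, and 0 were higher, against 0.163%. DESeq2 called 4 of the 65, against 1.93% of all tested genes, and limma-voom 1, against 0.721%. An unadjusted p under 0.05 was found for 10 of the 65 (15.4%), against 10.6% of all tested genes, and the groups did not overlap for 11 (16.9%), against 15.9%. Of the 65, 33 had a positive and 32 a negative estimate, with a median log2 fold change of 0.00.

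Upstream of NFAT, the genes of store-operated calcium entry include the endoplasmic reticulum sensors Stim1 and Stim2 and the pore subunits Orai1 to Orai3. EdgeR and DESeq2 called 0 of these 5, against 0.726% and 1.93% of all tested genes. The unadjusted edgeR p was under 0.05 for 1, against 10.6%. Orai3 had 16.3, 16.9 and 16.1 CPM in CreER-positive mice, against 12.8, 14.9 and 15.0 CPM in controls, so the groups did not overlap. Its log2 fold change of 0.20 ± 0.08 (SE) had an edgeR adjusted p of 0.379. Stim2 had 0.12 and Orai2 0.13, with edgeR adjusted p values of 0.560 and 0.714. The groups did not overlap for 1 of the 5, against 15.9% of all tested genes, and the list median was 0.12.

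Of 8 calmodulin and calcineurin genes, 0 were called by edgeR or DESeq2, against 0.726% and 1.93% of all tested genes. An unadjusted edgeR p under 0.05 was found for 0, against 10.6%. The calmodulin gene Calm3 had 763 ± 85.7 CPM in CreER-positive mice and 697 ± 41.5 CPM in controls (log2 fold change 0.13, edgeR adjusted p 0.713). The calcineurin genes Ppp3r1, the regulatory B subunit, and Ppp3cc, a catalytic subunit, had -0.07 and -0.05, with edgeR adjusted p values of 0.777 and 0.807. The list's estimates ran from -0.07 to 0.13. Ppp3r2, the testis form of the regulatory subunit, was at 0.123 to 0.235 CPM.

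EdgeR and DESeq2 called 0 of 8 regulators and anchors of calcineurin, against 0.726% and 1.93% of all tested genes. The unadjusted edgeR p was under 0.05 for 2, Cabin1 and Myoz2, against 10.6%. For 3 of the 8 the groups did not overlap, against 15.9%. Cabin1, which encodes a calcineurin-binding repressor, had 88.1, 94.3 and 101 CPM in CreER-positive mice, against 111, 113 and 108 CPM in controls. The groups did not overlap, and the log2 fold change was -0.23 ± 0.06 (SE) with an edgeR adjusted p of 0.191. Without CreER-positive replicate 3 that p was 0.0252, the lowest of a range of 0.0252 to 0.602 over the alternatives. Rcan1, whose promoters are shown above, had 70.8, 67.8 and 56.8 CPM in CreER-positive mice, against 57.0, 60.0 and 57.8 CPM in controls. CreER-positive replicates 1 and 2 lay above every control and replicate 3 below every control. Its log2 fold change was 0.16 ± 0.08 (SE), with an edgeR adjusted p of 0.533, and without CreER-positive replicate 3 it was 0.25 with an adjusted p of 0.0322, in a range of 0.0322 to 0.891 over the alternatives. The gene-level count does not separate the transcripts of the 2 start sites. Fkbp1a, the FK506-binding protein, had 0.09 (edgeR adjusted p 0.591), and Myoz2, a muscle calcineurin anchor at 0.332 ± 0.0622 CPM in CreER-positive mice and 0.534 ± 0.132 CPM in controls, had -0.70 (0.398).

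The kinases that return NFAT to the cytoplasm and the exportin Xpo1 had the narrowest spread. Of these 12 genes, 0 were called by edgeR or DESeq2, against 0.726% and 1.93% of all tested genes. An unadjusted edgeR p under 0.05 was found for 0, against 10.6%. The estimates ran from -0.05 to 0.12. Gsk3a, a glycogen synthase kinase gene, had 0.12, and the kinase genes Dyrk2 and Dyrk1b had -0.05 each, with edgeR adjusted p values of 0.580, 0.840 and 0.857. The estimate of Dyrk1b was above 0 in at least 1 alternative (0.0089).

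EdgeR called 0 of 11 nuclear partners, against 0.726% of all tested genes. Its unadjusted p was under 0.05 for 2, against 10.6% of all tested genes. DESeq2 called the same 2, against 1.93%. These were the AP-1 genes Jun and Jund, whose proteins pair with Fos proteins and can bind DNA next to NFAT. Jun had 89.7, 117 and 99.6 CPM in CreER-positive mice, against 57.4, 80.4 and 72.9 CPM in controls. Its log2 fold change of 0.54 ± 0.13 (SE) had an adjusted p of 0.127 by edgeR and 0.00105 by DESeq2. Jund had 90.0, 96.1 and 82.7 CPM in CreER-positive mice, against 69.4, 79.3 and 73.4 CPM in controls. In neither gene did the groups overlap, and this held for 3 of the 11 in total, against 15.9% of all tested genes. The log2 fold change of Jund was 0.27 ± 0.07 (SE), with an adjusted p of 0.174 by edgeR and 0.0410 by DESeq2, and it passed by edgeR without CreER-positive replicate 3 (0.0314) and without both that library and control replicate 2 (0.0481). Fosl2, another AP-1 gene, had -0.12 (edgeR adjusted p 0.589).

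Genes known to respond to NFAT5 under osmotic stress included no call. Of 10, edgeR and DESeq2 called 0, against 0.726% and 1.93% of all tested genes. An unadjusted edgeR p under 0.05 was found for 0, against 10.6%. Slc5a3, the myo-inositol transporter gene, had 67.8, 56.5 and 67.8 CPM in CreER-positive mice, against 65.6, 67.5 and 61.6 CPM in controls (log2 fold change -0.02, 95% interval -0.19 to 0.15). Slc6a6, the taurine transporter gene, had -0.04 with an interval from -0.26 to 0.18. Akr1b3, the aldose reductase gene of sorbitol synthesis, had 7.83 ± 0.744 CPM in CreER-positive mice and 8.72 ± 0.564 CPM in controls (-0.15, edgeR adjusted p 0.641). The heat shock gene Hspa1b had 3.46 ± 0.190 CPM in CreER-positive mice and 2.93 ± 0.0584 CPM in controls (0.24, 0.491), without overlap, and the calcium-binding protein gene S100a4 had 0.19 (0.750), or -0.06 without CreER-positive replicate 3. The groups did not overlap for 1 of the 10, against 15.9% of all tested genes, and the list's median was 0.00.

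Of 12 genes described as targets of calcineurin and NFATc factors, 1 fell by edgeR's test, against 0.563% of all tested genes. DESeq2 called 2 of the 12, against 1.93% of all tested genes, and 5 had an unadjusted edgeR p under 0.05, against 10.6%. The gene that fell, Trpc6, encodes a receptor-operated cation channel. It had 36.7, 31.6 and 34.6 CPM in CreER-positive mice, against 51.8, 47.1 and 44.4 CPM in controls. Its log2 fold change was -0.48 ± 0.08 (SE), with an edgeR adjusted p of 0.0255, and the call was lost in 4 of the 6 fits that leave out 1 library, namely those without a control (0.120, 0.121 and 0.0539 for controls 1, 2 and 3) and that without CreER-positive replicate 2 (0.0621). It was also lost with control replicate 2 and CreER-positive replicate 3 both left out (0.0915) and by limma on log2 RPKM (0.146). Nociceptor markers differed between the same groups. Of 8, 7 had an unadjusted edgeR p under 0.05, against 10.6% of all tested genes, and 6 did not overlap, against 15.9%. DESeq2 called 4 of the 8, against 1.93% of all tested genes, and edgeR called 1, against 0.726%. The gene called by edgeR, Mrgprd, was lower (-1.22, adjusted p 0.000249). Of the 8 estimates, 5 were positive and 3 negative. The summed level of the 8 was 4315 to 4562 CPM in CreER-positive mice and 4282 to 4548 CPM in controls, and their part in the Trpc6 value was not tested. Bdnf, the neurotrophin gene induced by activity, had 40.8, 50.4 and 48.9 CPM in CreER-positive mice, against 36.1, 28.1 and 33.1 CPM in controls. The Bdnf groups did not overlap, as for 3 of the 12 genes in total, against 15.9% of all tested genes. Its log2 fold change of 0.53 ± 0.10 (SE) had an adjusted p of 0.0659 by edgeR and 0.000172 by DESeq2, and it passed by edgeR without CreER-positive replicate 1 (0.0326), in a range of 0.000172 to 0.256 over the alternatives. Kcnq3, a subunit gene of the M-type potassium channel, had 0.30 (edgeR adjusted p 0.381), and the transcription factor gene Egr2 had 0.32 (0.435). The list's median was -0.07, with 5 positive and 7 negative estimates.

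**Figure D5:**
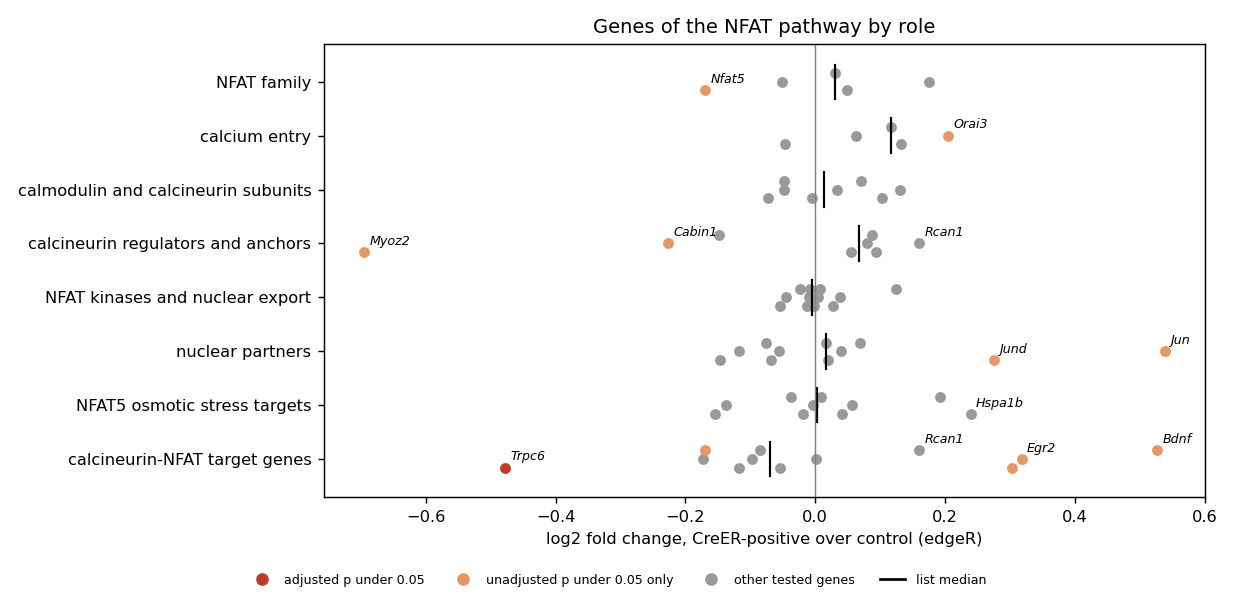
Log2 fold change, CreER-positive over control, of each tested gene of the NFAT family and of 7 lists of its pathway; red points passed edgeR's adjusted p threshold of 0.05, orange points an unadjusted p of 0.05 alone, and bars are list medians. Trpc6 (-0.48) is the single gene that passed, and Jun (0.54) and Bdnf (0.53) have the highest estimates.

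Penk rose to 13.4 ± 4.44 CPM in CreER-positive mice, against 4.67 ± 0.288 CPM in controls (edgeR adjusted p 0.00951), a call lost without control replicate 2 (0.0741) or 3 (0.0669) and by limma on log2 RPKM (0.0987). Within the CreER-positive group Penk was highest in replicate 3 (18.4 CPM), while Nfat5 there had 179.7 CPM, close to the 179 CPM of replicate 1, in which Penk had 9.84 CPM. Nfatc1, Nfatc2 and Nfatc4 were also highest in replicate 3 of that group. A relation between Penk and an NFAT gene within a group was not tested.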

How the data were processed

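Dorsal root ganglion RNA of 6 mice was sequenced, and libraries were grouped by the genotype label. The aligner GSNAP and the build GRCm38 (mm10) are named in the submitters' processing notes. How reads were counted, with which annotation and strand setting, is not given in the sources used here. The authors' table for each library gives, for 36528 NCBI genes, the read count as a whole number, the width of the gene and its RPKM (the count scaled by width and library total). The deposited counts were used for all main tests, and the deposited RPKM only as an alternative. Of the identifiers, 31049 matched a GRCm38.p6 symbol, and the 5479 others held 1.91% of counts.

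Genes were filtered with filterByExpr, which left 22043, scaled with TMM factors and tested with edgeR's quasi-likelihood test (edgeR 4.0.16, R 4.3.3), adjusted by Benjamini-Hochberg over all tested genes at 0.05. The SE is the size of the log2 fold change divided by the square root of F. The common biological coefficient of variation was 8.99%. CPM were also tested by exact permutation over the 20 assignments. On counts simulated for 22043 genes, the test recovered 75.6% of genes given a fold of 1.5 and 93.6% of genes given a fold of 2, and 16 of 187 calls were unchanged genes. No pair of replicates was as alike as counting noise alone would make it (chi-square over its degrees of freedom 35.4 to 43.9 between CreER-positive libraries and 6.01 to 9.02 between controls).

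The members, gene lists and tests were chosen with earlier results of these data known. Named genes were the members, Scn9a, Penk, called genes and the 3 smallest p values (mean of at least 1 CPM) of each list, and the 2 closest genes of each member. Slc5a3, Slc6a6, Ppp3r2, Myoz2, Egr2, Pax5 and Mrgprd were added after their values were seen, and 1 gene counted in a list is not reported here. Alternatives were other scalings and filters, DESeq2 1.42.0, limma-voom (limma 3.58.1), legacy and robust quasi-likelihood settings, limma on log2(RPKM + 0.1), and leaving out each library. Promoter windows are from RefSeq. Figures used matplotlib 3.10.9.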

Additional observations from a re-analysis of the deposited data

How the results depend on the processing

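No NFAT gene was called under any of the 17 alternatives run. Nfat5 stayed negative in all 17 (-0.21 to -0.13, adjusted p 0.132 to 0.837), Nfatc3 stayed negative (-0.07 to -0.02) and Nfatc4 positive (0.06 to 0.31). Leaving out 1 library at a time gave -0.16 to 0.15 for Nfatc1, -0.12 to 0.15 for Nfatc2 and -0.086 to 0.00489 for Scn9a. Nfatc1 was negative without CreER-positive replicate 3 (-0.16) or control replicate 1 (-0.05), Nfatc2 without CreER-positive replicate 3 (-0.12) or control replicate 3 (-0.02), and Scn9a was 0.00489 without control replicate 1. With control replicate 2 and CreER-positive replicate 3 both left out, Nfatc1 had -0.042 and Nfatc2 -0.16. The cause of these changes was not tested. The count over all genes of 160 became 425 by DESeq2 and 70 by limma on RPKM, and ranged from 60 to 568 when 1 library was left out. The pathway count of 1 became 4 by DESeq2 (Bdnf, Jun, Jund and Trpc6) and 0 by limma on RPKM, and ranged from 0 to 4 when 1 library was left out. Per kb of exons, Nfatc1 took rank 3 and Nfatc4 rank 4. Scaling choices moved the median of all genes to at most -0.02. No paired analysis was possible because the replicate numbers used here only follow accession order and the labels do not say which mice share a litter. Nfatc4 had 73 to 130 counts per library, Nfatc2 158 to 229 and Nfatc1 219 to 417, with an SE of 0.17, 0.16 and 0.16. Without CreER-positive replicate 3 the SE was 0.16 for Nfatc4, 0.14 for Nfatc2 and 0.12 for Nfatc1. Without CreER-positive replicate 1 it was 0.16, 0.17 and 0.16 for the same genes. What set the SE was not tested.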
